A study of Mus musculus with 9 samples.

Results

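The genes described here are 6 members of the DNA mismatch repair machinery, Msh6, Msh3, Pms2, Pms1, Mlh3 and Exo1, chosen by name from the 19938 genes that the arrays measured. Each had 1 probe set with its symbol alone (10447417, 10411019, 10527268, 10354542, 10401616 and 10352048, in that order). Their mean signals exceeded those of 65.4%, 51.7%, 59.5%, 50.9%, 64.8% and 45.3% of genes. They were followed in mouse embryonic fibroblasts of 3 Rb1 genotypes, kept in low serum. Rb +/+ cells (WT) have the normal retinoblastoma protein, Rb ∆G/∆G cells (∆G) are homozygous for an allele mutated where the protein makes its common contact with E2F transcription factors, and Rb -/- cells are the null genotype. All 9 cultures, 3 per genotype, were plated sparsely and given 0.1% serum from 24 h on, which stops normal fibroblasts from cycling. Affymetrix Gene ST arrays measured total RNA, and values are log2 RMA signals. The series text speaks of littermates, but no label says which arrays share a litter or an embryo, nor which part of Rb1 the null allele lacks.

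Mismatch repair corrects bases that the replicative polymerases insert wrongly. A MutS heterodimer finds the error, a MutL heterodimer is recruited and nicks the new strand, an exonuclease removes the stretch with the error, and the replication machinery fills and seals the gap. Msh6 and Msh3 are the alternative specificity subunits of MutS, Msh6 for base mismatches and short loops and Msh3 for longer insertion and deletion loops. Pms2, Pms1 and Mlh3 are the alternative partners in MutL. Pms2 carries the nicking activity of repair, Mlh3 is known mainly for crossover formation in meiosis, and Pms1 has no settled role in mammalian repair. Exo1 is the exonuclease. Several of these genes are known as E2F targets, since repair is needed when DNA is copied. The shared partner subunits of MutS and MutL are not analysed here.

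The promoter letters of 4 members are shown because the members differed from WT in unlike ways in ∆G and in null. RefSeq windows (GRCm38.p6) of 300 bases, 250 before to 50 after the start of a gene, were found for 5 of the 6 members, Exo1 excepted, and the first 280 bases are printed 5′ to 3′ on the strand of the gene. Capitals mark E2F sites (TTTGGCGC, TTTGCCGC, TTTCGCGC or TTTCCCGC, on either strand) and CCAAT boxes (CCAAT, either strand, so also ATTGG).
Msh6 promoter, chr17:87974800-87975079, plus strand: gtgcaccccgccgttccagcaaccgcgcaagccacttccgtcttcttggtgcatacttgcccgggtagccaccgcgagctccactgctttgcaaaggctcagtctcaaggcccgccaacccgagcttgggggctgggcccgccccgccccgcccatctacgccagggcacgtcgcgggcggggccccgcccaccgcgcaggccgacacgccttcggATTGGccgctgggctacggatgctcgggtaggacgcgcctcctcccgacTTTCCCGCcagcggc
Msh3 promoter, chr13:92354974-92355253, minus strand: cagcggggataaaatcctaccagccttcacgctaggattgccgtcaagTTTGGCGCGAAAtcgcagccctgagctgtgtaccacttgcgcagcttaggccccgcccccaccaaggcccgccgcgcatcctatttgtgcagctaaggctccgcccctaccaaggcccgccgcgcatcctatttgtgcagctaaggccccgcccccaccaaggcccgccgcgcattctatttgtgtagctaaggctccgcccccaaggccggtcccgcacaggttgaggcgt
Pms1 promoter, chr1:53296999-53297278, minus strand: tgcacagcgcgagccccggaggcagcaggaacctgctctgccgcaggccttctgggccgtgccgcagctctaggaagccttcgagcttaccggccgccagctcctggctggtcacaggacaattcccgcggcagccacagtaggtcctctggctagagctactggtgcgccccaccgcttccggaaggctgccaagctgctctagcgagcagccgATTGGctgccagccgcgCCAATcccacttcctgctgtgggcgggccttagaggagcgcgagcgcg
Mlh3 promoter, chr12:85270570-85270849, minus strand: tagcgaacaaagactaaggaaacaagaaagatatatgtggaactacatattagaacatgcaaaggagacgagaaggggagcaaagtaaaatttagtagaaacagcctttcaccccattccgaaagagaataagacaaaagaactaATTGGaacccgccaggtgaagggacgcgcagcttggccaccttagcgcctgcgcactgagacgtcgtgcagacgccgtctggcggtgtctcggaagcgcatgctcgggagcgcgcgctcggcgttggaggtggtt

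E2F letters were present in the windows of Msh6 and Msh3 and in none of those of Pms1, Mlh3 and Pms2. Msh6 holds TTTCCCGC at positions 16 to 23 after its start. Msh3 holds TTTGGCGC at −202 to −195 and, overlapping it on the other strand, GCGCGAAA at −198 to −191. Of 32851 windows of all genes, 2.26% hold such an E2F site and 37.4% a CCAAT box. CCAAT boxes were present in the windows of Msh6, Mlh3, Pms1 and Pms2 and absent from that of Msh3, and no match of one motif overlapped a match of the other. These are matches of letters, not measured binding, and a window without a match says only that the letters are not in it.

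Before the results, 3 features of the arrays matter. Array medians lay between 6.329 and 6.401, and ∆G replicate 3 stood apart from its group, at −0.3 on the first principal component against −13.9 and −11.5 for the other ∆G arrays, −21.3 to −14.7 for WT and 24.2 to 27.4 for null. Xist was 11.42 on WT replicate 3 and 11.52 to 11.98 on the null arrays but 4.24 to 4.45 on all others, so a female pattern coincided with null, a male pattern with ∆G, and WT held both. The mean of 11 measured markers of cycling cells (of 12 listed) was 8.31, 7.64 and 7.66 on WT replicates 1, 2 and 3, 7.95, 7.82 and 8.63 on the ∆G arrays and 9.06, 8.88 and 8.82 on the null arrays. Rb1 itself was 8.93 to 9.17 in WT, 9.53 to 9.76 in ∆G and 8.18 to 8.58 in null, where it fell by 0.77 on the log2 scale (limma adjusted p = 0.0011). Fibroblast markers averaged 11.23 to 11.99 over the arrays, 6 of 8 being lower in null, while endothelial, epithelial and skeletal muscle markers averaged 5.46 to 5.87. Macrophage and leukocyte markers averaged 6.14, 5.8 and 5.37 in WT, 6.61, 6.2 and 5.58 in ∆G and 5.55 to 5.7 in null. None of the 10 was called in any comparison. At an unadjusted limma p under 0.05 there were 4 in ∆G against null and 1 in ∆G against WT. The median log2 difference of the 10 was 0.52 in ∆G against null. The part of these markers in the results was not tested. In RNA from whole cultures, fewer cells of a type and less RNA per cell cannot be told apart.

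**Figure D1:**
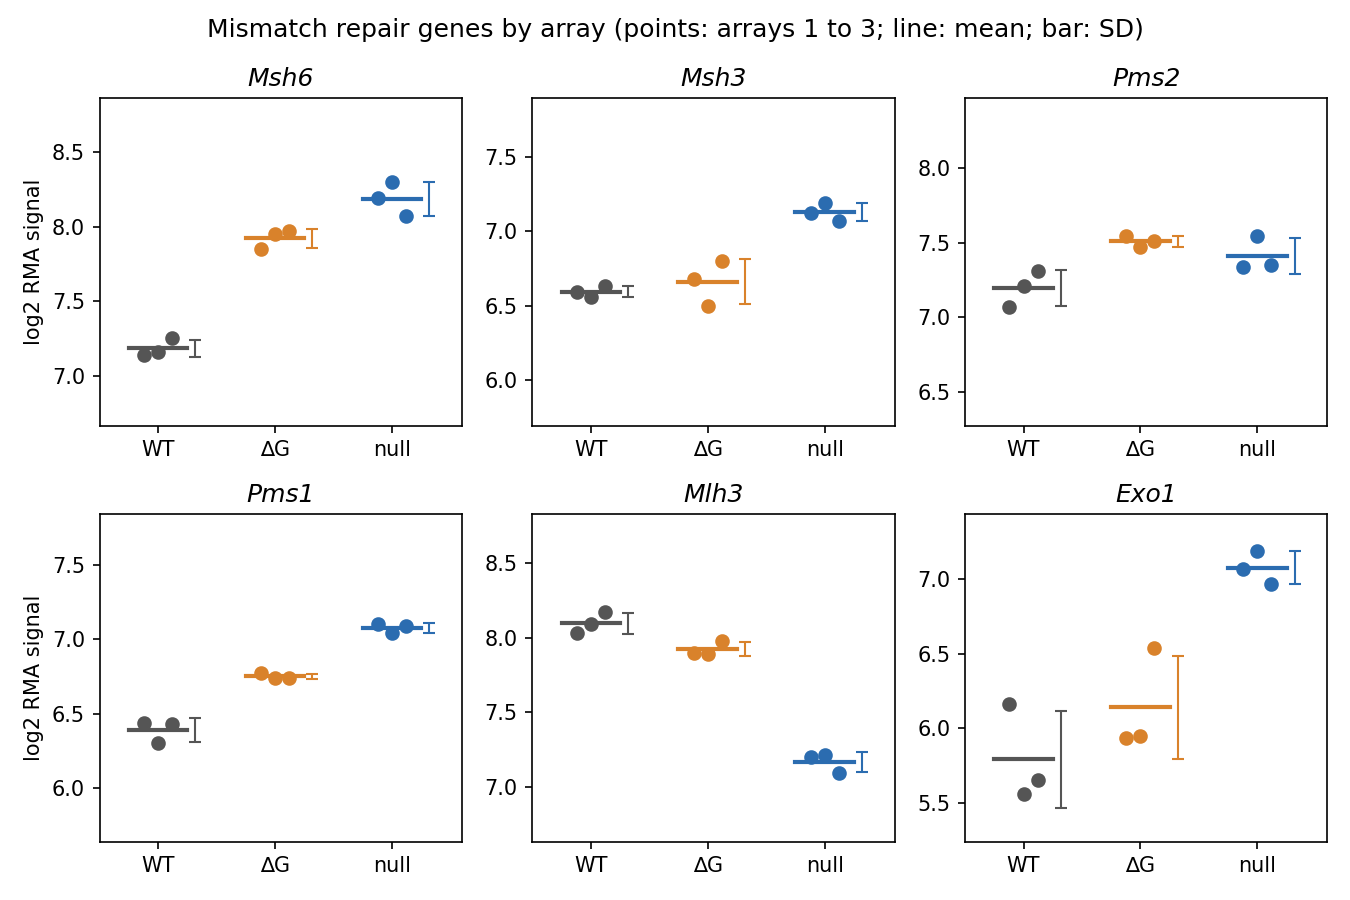
Log2 RMA signal of the 6 genes on each array, by genotype; points are arrays, lines are means and bars are SD (n = 3), and each panel spans the same number of log2 units. Msh6 and Pms1 stood higher in ∆G and in null than in WT. Msh3 and Exo1 stood clear of WT in null but overlapped it in ∆G. Mlh3 was lowest in null, and Pms2 stood above WT in ∆G and in null without being called.

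The first question was which of these genes differ when the common E2F contact of Rb is mutated. In ∆G, 2 of the 6 genes rose and none fell, by limma at an adjusted p of 0.05 over all genes. Msh6 rose 1.67-fold and Pms1 1.29-fold, while Pms2, Exo1, Msh3 and Mlh3 did not pass. The Pms1 call was lost in 11 of 18 alternatives, which leaves a count of 1. Over all genes 0.813% were called in this comparison, 0.602% higher and 0.211% lower. The median log2 difference of the 6 genes was 0.33, against −0.018 for all genes.

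The second question was how cells of the null genotype differ from WT. In null cells 5 of the 6 genes changed against WT, and the change went both ways. Exo1 rose 2.45-fold, Msh6 2.01-fold, Pms1 1.61-fold and Msh3 1.45-fold, whereas Mlh3 was 1.9-fold lower and Pms2 did not pass. Over all genes 18.4% were called here, 8.38% higher and 10.1% lower. The median of the 6 was 0.61, against −0.01 for all genes. The comparisons of ∆G and of null with WT share the WT arrays, so they are not independent of each other.

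The third comparison set ∆G directly against null and so tests whether the 2 mutant genotypes differ. Of the 6 genes, 3 were lower in ∆G (Exo1, Msh3 and Pms1), 1 was higher (Mlh3), and Msh6 and Pms2 did not pass. The background was 8.71% of all genes, 4.44% higher and 4.27% lower. Since sex pattern and genotype coincide fully between these groups, the 2 cannot be told apart without the WT arrays. With the mean of 3 Y-linked genes as a covariate, which draws on the WT arrays of both patterns, 1 of the 6 genes was called, Mlh3, and 53 genes in all.

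**Figure D2:**
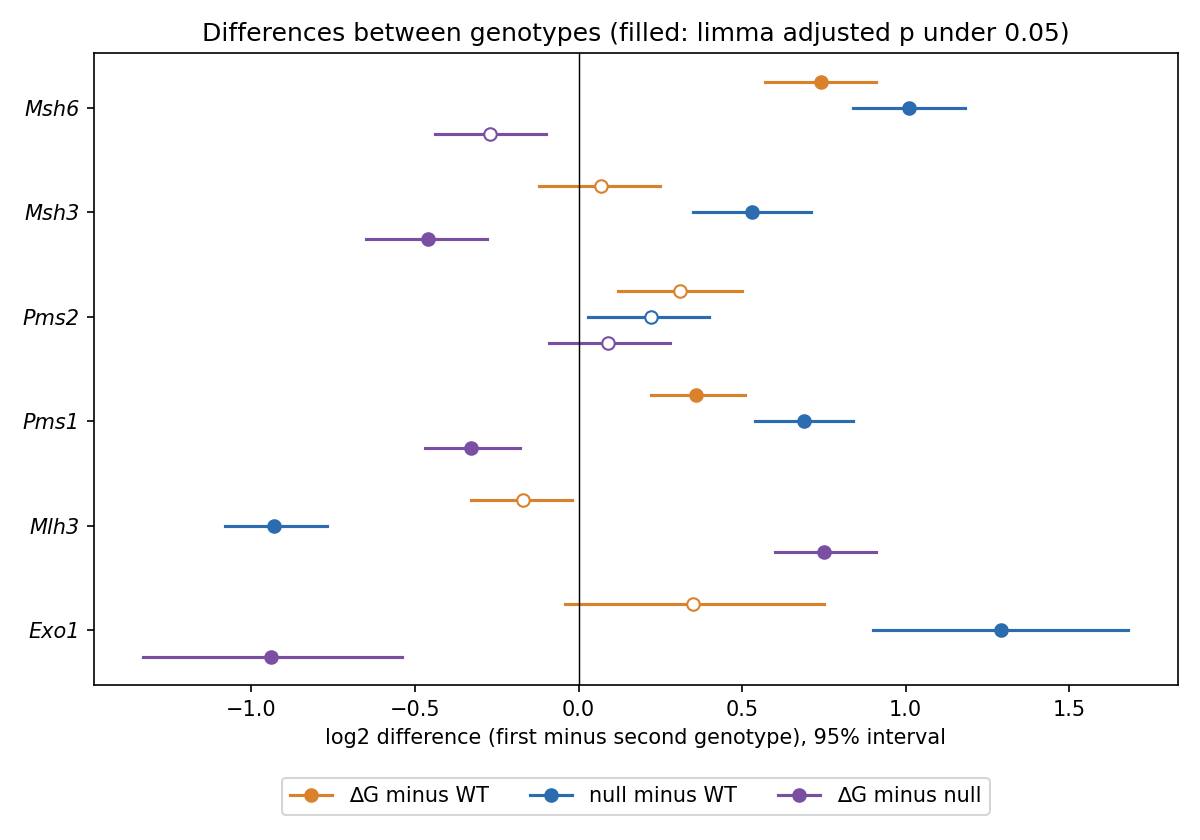
Log2 differences between genotypes (x axis) for each gene, with 95% intervals from limma; filled points passed an adjusted p of 0.05 over all genes. For Msh3 and Exo1 the interval of ∆G minus WT includes 0 while that of null minus WT does not, and for Mlh3 both differences from WT are negative and only that of null passed.

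Among the MutS subunits, Msh6 was the one called higher than WT in both ∆G and null. Its signal was 7.14, 7.16 and 7.25 on WT replicates 1, 2 and 3, 7.85, 7.95 and 7.97 on the ∆G arrays and 8.19, 8.3 and 8.07 on the null arrays. The 3 groups did not overlap, and every ∆G array lay above every WT array and below every null array. Groups that do not overlap were common, at 16.5% of all genes for ∆G against WT, 34.7% for null against WT and 27% for ∆G against null. The ∆G rise was 0.74 on the log2 scale (SE 0.08, n = 3 each, limma adjusted p = 0.0016), and only 0.286% of all genes rose more. In null the rise was 1.01 (SE 0.08, adjusted p = 1.5e-05), which 1.06% of genes exceeded. Both calls held in all 18 alternatives tried. ∆G lay below null by a log2 of −0.27 (95% interval −0.44 to −0.1), which did not pass (adjusted p = 0.057). It did pass after median centring (0.049), repeated quantile normalisation (0.044), removal of the dimmest 25% of genes (0.0497) and without null replicate 3 (0.042).

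Msh3, the other specificity subunit, did not rise detectably in ∆G. Its signal was 6.59, 6.56 and 6.63 on the WT arrays, 6.68, 6.5 and 6.8 on the ∆G arrays and 7.12, 7.19 and 7.07 on the null arrays. WT and ∆G overlapped, with ∆G replicate 2 the lowest of all 9 arrays, and null lay above both. The difference of ∆G from WT was 0.07 (95% interval −0.12 to 0.25, adjusted p = 0.84), an interval that leaves out the size seen in null. Without ∆G replicate 3 it was −0.002. In null Msh3 rose by 0.53 (SE 0.08, adjusted p = 0.0013), and ∆G fell short of null by −0.46 (SE 0.08, adjusted p = 0.0065). That last call was lost with the Y-linked covariate (log2 difference −0.38, adjusted p = 0.35), whereas the null rise kept its call in all 18 alternatives. Msh6 and Msh3 both hold E2F letters in the windows printed above, at different places, and only Msh6 passed in ∆G.

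Among the MutL subunits, Pms1 rose from WT through ∆G to null in the same order as Msh6, at a smaller size. Its signal was 6.44, 6.3 and 6.43 in WT, 6.77, 6.74 and 6.74 in ∆G and 7.1, 7.04 and 7.09 in null. The 3 groups formed separate steps, with ∆G midway and its 3 arrays almost equal (SD 0.02). Pms1 rose by 0.36 in ∆G (SE 0.07, adjusted p = 0.035) and by 0.69 in null (SE 0.07, adjusted p = 6.3e-05). The null call held in all 18 alternatives, but the ∆G call was close to the threshold and was lost in 11 of 18, with a log2 difference of 0.32 to 0.39 throughout. On leaving out 1 array the adjusted p was 0.066, 0.145 and 0.063 for the WT arrays in order and 0.121, 0.103 and 0.053 for the ∆G arrays, and it was 0.068 and 0.054 for null replicates 1 and 3. The call was also lost with only the WT and ∆G arrays in the fit (0.079) and with the Y-linked covariate (0.059). The fit against the 2 WT arrays of male pattern (0.063) is the one without WT replicate 3, so the 11 of 18 include it under both names. ∆G stood below null by −0.33 (SE 0.07, adjusted p = 0.012), a call lost without null replicate 1 (0.058) and with the Y-linked covariate (log2 difference −0.26, adjusted p = 0.43).

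Pms2, which supplies the strand nick in repair, was not called in any comparison. Its signal was 7.07, 7.21 and 7.31 in WT, 7.55, 7.47 and 7.51 in ∆G and 7.34, 7.55 and 7.35 in null. The ∆G arrays lay above the WT arrays without overlap and shared the range of the null arrays. The difference was 0.31 in ∆G (95% interval 0.12 to 0.5, adjusted p = 0.15) and 0.22 in null (95% interval 0.03 to 0.4, adjusted p = 0.11), with unadjusted p-values of 0.0037 and 0.027 in limma. ∆G minus null was 0.09 (95% interval −0.09 to 0.28), and no alternative gave Pms2 a call.

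Mlh3, the meiotic MutL partner, moved in the opposite direction. Its signal was 8.03, 8.09 and 8.17 in WT, 7.9, 7.89 and 7.98 in ∆G and 7.2, 7.21 and 7.09 in null. The null arrays lay far below the other 6, and the ∆G arrays lay slightly below the WT arrays without overlap. In null Mlh3 fell by 0.93 (SE 0.07, adjusted p = 1.5e-05), and 0.933% of all genes fell more. The ∆G difference was −0.17 (95% interval −0.33 to −0.02, adjusted p = 0.36), which did not pass. ∆G stood above null by 0.75 (SE 0.07, adjusted p = 0.00025), and both calls held in every alternative, 18 for null minus WT and 17 for ∆G minus null. Against WT replicate 3 alone, the WT array of the same female pattern, and in the fit with the Y-linked covariate, the null difference was −1.001 and −1.012, and over all 18 alternatives it was −1.01 to −0.89. Mlh3 was thus the only one of the 6 genes whose difference between ∆G and null passed with the Y-linked covariate as well (adjusted p = 0.032).

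Exo1, the exonuclease, had the widest range of the 6. Its signal was 6.16, 5.56 and 5.65 on WT replicates 1, 2 and 3, 5.93, 5.95 and 6.54 on ∆G replicates 1, 2 and 3, and 7.07, 7.19 and 6.97 on the null arrays. WT and ∆G overlapped, because WT replicate 1 was higher than 2 of the ∆G arrays, and null lay above both. Exo1 rose by 1.29 in null (SE 0.18, adjusted p = 0.00061), a call that held in all 18 alternatives. The ∆G difference was 0.35 (95% interval −0.04 to 0.75, adjusted p = 0.48), and it was 0.15 without ∆G replicate 3 and 0.54 without WT replicate 1. ∆G was lower than null by −0.94 (SE 0.18, adjusted p = 0.0087), or −1.14 without ∆G replicate 3, and with the Y-linked covariate the call was lost (log2 difference −1.05, adjusted p = 0.24).

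Exo1 and the markers of cycling cells were highest on the same array in WT and in ∆G, but not in null. WT replicate 1 had the highest Exo1 and the highest marker mean of its group (6.16 and 8.31), and so did ∆G replicate 3 (6.54 and 8.63). In null, Exo1 was highest on replicate 2 and the marker mean on replicate 1, and ∆G replicates 1 and 2 (Exo1 5.93 and 5.95, marker means 7.95 and 7.82) ran in the opposite order. Msh6 was lowest in WT on replicate 1, at 7.14, and highest in ∆G on replicate 3, at 7.97. On ∆G replicates 1 and 2, where the marker means of 7.95 and 7.82 lay within the WT range, Msh6 was 7.85 and 7.95 against 7.25 or less in WT. Mlh3 on ∆G replicate 3, whose marker mean was nearest to null, was 7.98, the highest of its group. All 11 cycling markers rose in null and none was called in ∆G, where 1 had an unadjusted p under 0.05, and their part in the changes of the 6 genes was not tested.

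**Figure D3:**
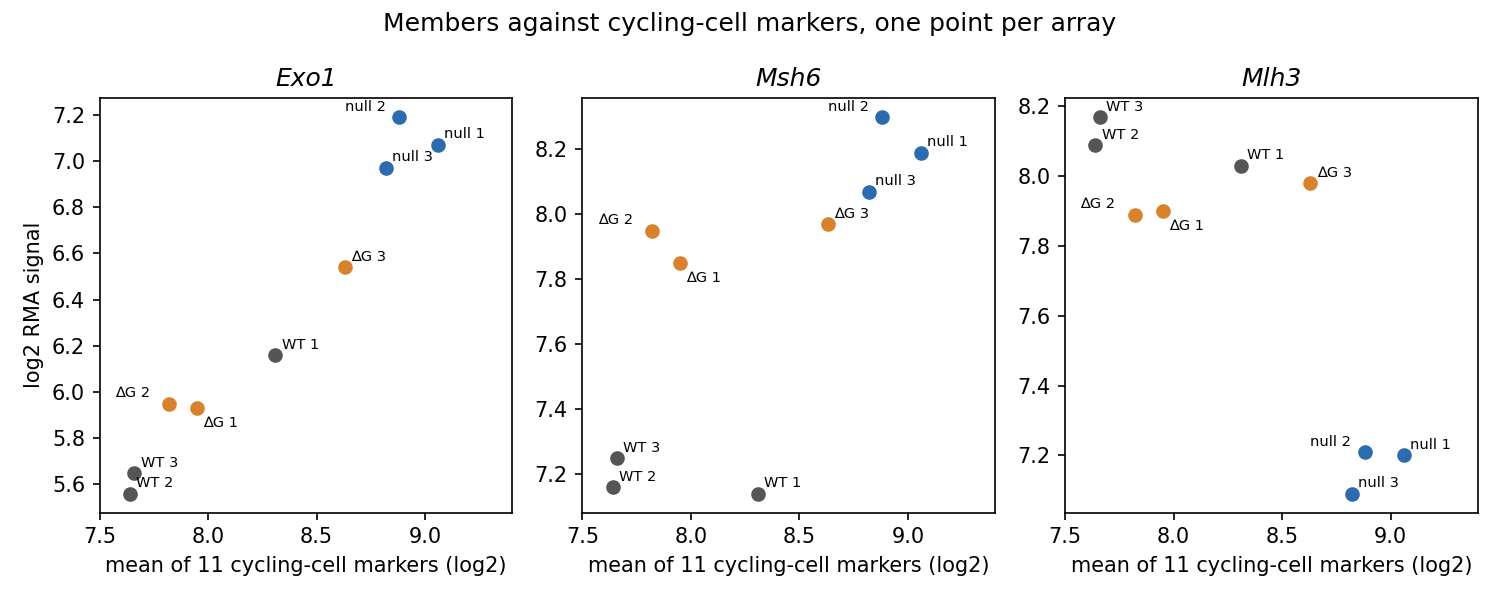
Log2 RMA signal of Exo1, Msh6 and Mlh3 (y axes, a scale of its own for each panel) against the mean log2 signal of the 11 cycling-cell markers (x axis), with 1 point per array. The WT and ∆G arrays with the highest Exo1 are those with the highest marker mean of their group, which does not hold in null. Msh6 on ∆G replicates 1 and 2 is high at marker means of 7.95 and 7.82. Mlh3 is far lower on the null arrays, and slightly lower in ∆G than in WT without overlap.

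Genes whose pattern over the 9 arrays was most like each member were found by Pearson correlation of log2 signals among all genes, as a description that is shaped mostly by the 3 genotypes. Msh6 was most like Topbp1, a checkpoint and replication factor, Chaf1a, a subunit of the chromatin assembly factor, and Rpa1, of the single-strand binding complex (r = 0.994, 0.992 and 0.992). Pms1 was most like Pola1, the catalytic subunit of polymerase alpha, Rad51c, a recombination gene, and Atm, the damage kinase (0.99, 0.988 and 0.988). Exo1 was most like Bard1, a ubiquitin ligase subunit of recombination, Ticrr, an origin firing factor, and Cenpm, of the kinetochore (0.995, 0.995 and 0.994). The log2 differences of these 3 from WT, given without a test, were 0.28 to 0.39 in ∆G and 1.13 to 1.21 in null. Msh3 was most like Pdik1l, Ado and Ppil1 (0.992, 0.986 and 0.984), Mlh3 like Rab5a, Zkscan2 and Rora (0.99, 0.987 and 0.985), and Pms2 less closely like Zfp653, Mob3b and Nsmaf (0.955, 0.952 and 0.945).

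The steps of mismatch repair after excision depend on the sliding clamp, its loader, the single-strand binding complex, polymerase delta and a ligase. Of the 15 genes in this list, which also holds Fen1, 5 rose in ∆G and none fell, and 14 rose in null. Over all genes 0.602% were called higher in ∆G and 8.38% in null. The median log2 differences of the 15 genes were 0.39 and 0.96, against −0.018 and −0.01 for all genes. Lig1, which seals the strand, was 6.8 to 7.14 in WT, 7.72 to 7.95 in ∆G and 8.4 to 8.58 in null, and rose 1.78-fold and 2.78-fold (adjusted p = 0.0036 and 1.1e-05). Rfc2 of the clamp loader rose 1.5-fold and 1.97-fold, and Rpa1 1.59-fold and 1.91-fold. Rpa3, of the same complex as Rpa1, was 6.58 to 6.61 in WT, 6.64 to 6.91 in ∆G and 7.67 to 7.87 in null. It rose 2.22-fold in null (adjusted p = 1.5e-05) and was not called in ∆G (0.42), and ∆G was lower than null by −0.96 (adjusted p = 0.00019, or 0.059 with the Y-linked covariate). In ∆G against null 11 of the 15 were lower, beside 4.27% of all genes called lower there. That count was 4, 4, 4 and 5 without ∆G replicate 1, ∆G replicate 2, null replicate 1 or null replicate 2. With the Y-linked covariate none was called lower. Without ∆G replicate 1 the count of rises in ∆G was 3.

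For the null comparisons of the following lists, the share of all genes called was 8.38% higher and 10.1% lower. None of 10 accessory genes of mismatch repair passed in ∆G (2 at an unadjusted p under 0.05 in limma), and 4 rose in null, Brip1, a helicase, 1.83-fold, the helicase subunits Mcm8 and Mcm9 1.6-fold and 1.46-fold, and Parp1 1.27-fold. The meiotic MutS homologues Msh4 and Msh5 had log2 differences of −0.04 and 0.23 in null and 0.08 and 0.07 in ∆G and were not called. Of 15 measured base excision genes, 6 rose in null and none fell, among them the glycosylases Neil3 (2.08-fold), Mbd4 (1.58-fold) and Ung (1.55-fold) and the scaffold Xrcc1 (1.36-fold). Mbd4, a thymine glycosylase for mismatches at methylated sites, also rose 1.33-fold in ∆G (adjusted p = 0.029), the only call of that list there. Without WT replicate 1, 2 or 3 or ∆G replicate 1 or 2, Mbd4 was not called in ∆G. Nor was it with the Y-linked covariate or against the 2 sex-matched WT arrays, the latter being the fit without WT replicate 3. Its limma adjusted p went up to 0.12, while its log2 difference stayed at 0.38 to 0.44.

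Nucleotide excision repair removes bulky lesions, and end joining rejoins broken ends. Of 17 measured nucleotide excision genes, none rose and 5 fell in null, among them the damage recognition genes Xpa and Xpc, with log2 differences of −0.39 and −0.35 (adjusted p = 0.0027 and 0.01). Also in that group were Ercc3 and Ercc4, at −0.29 and −0.3, of which Ercc3 lost its call without WT replicate 3 or null replicate 1 or 3, and Ercc4 without any one of WT replicates 2 and 3, ∆G replicates 1 and 2 and null replicates 1 and 3. The count of 5 was 3 without WT replicate 2, ∆G replicate 1 or ∆G replicate 2 and 2 without WT replicate 3, null replicate 1 or null replicate 3. Of 9 measured end-joining genes, Xrcc6 rose 1.36-fold and Trp53bp1 fell by 0.32 on the log2 scale in null, while Prkdc and Xrcc4 were at 0.2 and −0.13 and not called. These 2 calls among 9 genes stand beside 18.4% of all genes. None of the 3 direct reversal genes was called (Mgmt 0.05, Alkbh2 0.17 and Alkbh3 −0.12 in null). In ∆G no gene of these 3 lists was called in limma, with 3, 2 and 1 at an unadjusted p under 0.05. In null against WT replicate 3 alone, and with the Y-linked covariate, none of the nucleotide excision genes was called lower, 2 base excision genes (Ung and Mbd4 among those named) and 2 accessory genes were called higher, and Mcm8, Mcm9, Parp1, Neil3, Xrcc1 and Xrcc6 were not called, with adjusted p-values of up to 0.2. The log2 differences kept their sign, and over all alternatives they were −0.42 to −0.34 for Xpa, −0.41 to −0.32 for Xpc, 0.32 to 0.35 for Parp1, 0.34 to 0.53 for Xrcc1, 0.37 to 0.56 for Xrcc6, 0.51 to 0.74 for Mcm8, 0.38 to 0.6 for Mcm9 and 0.7 to 1.21 for Neil3.

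**Figure D4:**
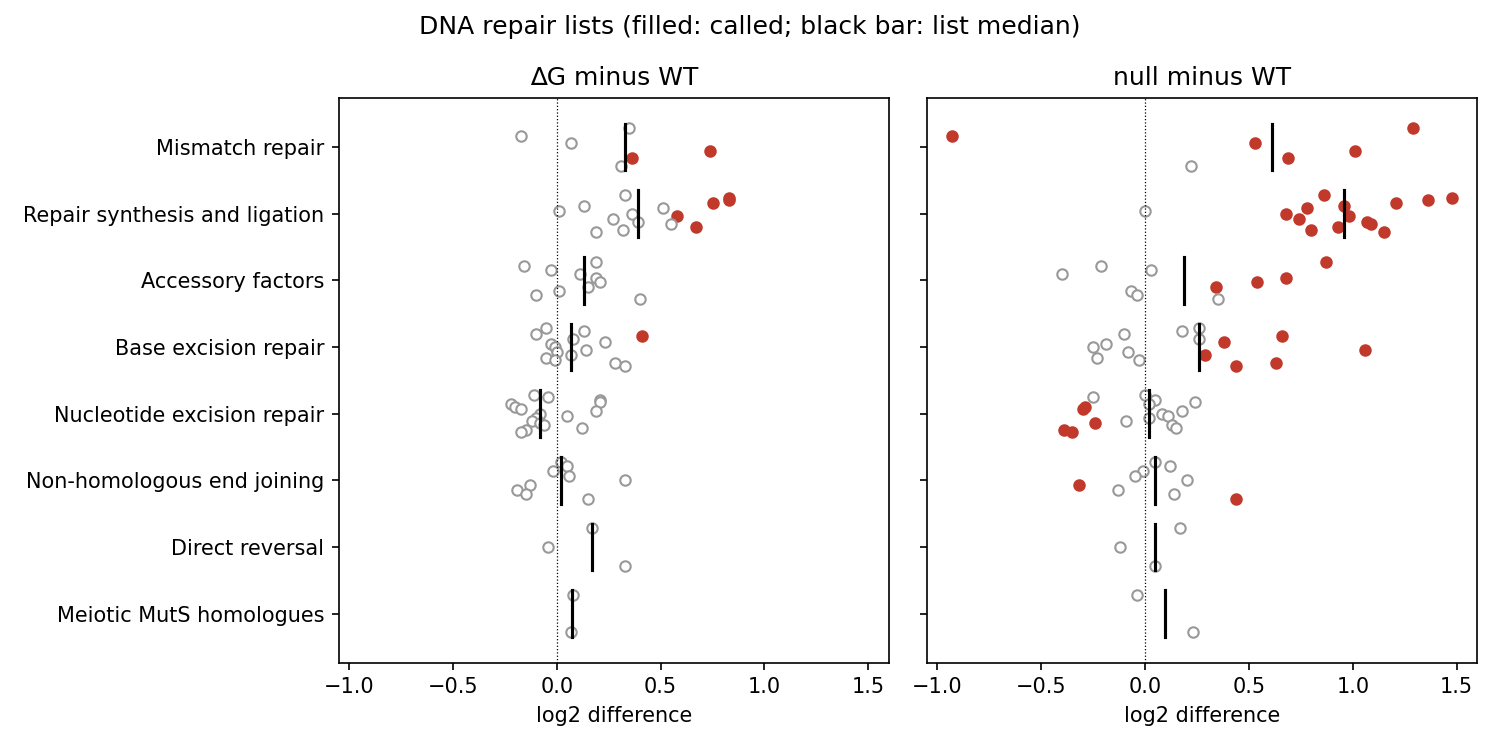
Log2 differences from WT (x axes) of the genes of each repair list in ∆G and in null; filled points passed limma's adjusted p of 0.05 and black bars are list medians. The mismatch repair list spans from −0.93 to 1.29 in null, a spread in both directions, while the repair synthesis list lies at 0 or above in both genotypes.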

How the data were processed

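Expression was measured with Affymetrix mouse whole-transcript gene arrays in 9 cultures. The deposited values are log2 RMA signals made by the authors, per the series text with BRB-ArrayTools, while the submitters' processing notes list RMA and affy; their versions and any genome build were not given in the sources used here. RMA corrects background, normalises by quantiles and summarises probes, and no further scaling was applied. Of 35512 probe sets (1 without values), 21789 had 1 gene symbol, 1621 several and 12102 none. For each gene the probe set with the highest mean was kept, which left 19938 genes.

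Genotype means were fitted over all arrays together with limma 3.58.1 under R 4.3.3 (default eBayes, 6 residual degrees of freedom). P-values were adjusted by Benjamini-Hochberg over all genes within a comparison, at 0.05. The fit was tested on simulated data. P-values measure the spread between these arrays, which may be technical in part. Precision is limited by having 3 arrays per genotype. Intervals are at 95%.

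The 6 genes and the lists were chosen with earlier results of these data known. Genes named from the lists are the 4 with the lowest p in null minus WT, and 3 genes per member by likeness (predicted genes, clone names, microRNAs, snoRNAs and odour and pheromone receptors left out). Some genes of the lists are not reported here. Promoters came from RefSeq (GRCm38.p6), and protein sequences were not used here.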

Additional observations from a re-analysis of the deposited data

How the results depend on the processing

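Across the 3 comparisons the 6 genes gave 298 log2 differences under alternatives with the same direction and side of the threshold, 15 that lost a call and 5 that gained one or turned. The one that turned is Msh3 in ∆G minus WT, at −0.002 without ∆G replicate 3 and up to 0.148 (without ∆G replicate 2) on leaving out 1 array. The count of 5 genes in null minus WT was 5 throughout. The count of 2 in ∆G minus WT was 1 with only the 2 genotypes in the fit and with the Y-linked covariate. It was also 1 against the sex-matched WT arrays, which is the fit without WT replicate 3. On leaving out 1 array it was 1 to 2, and where it was 1, Pms1 was lost. The count of 4 in ∆G minus null was 1 with the covariate and 3 to 5 on leaving out 1 array. Over all genes 162, 3678 and 1737 were called in ∆G minus WT, null minus WT and ∆G minus null. Leaving out 1 array gave 62 to 252, 2546 to 3895 and 762 to 2408. The low counts were 62, 83, 70 and 91 without WT replicate 2, ∆G replicates 1 and 2 and null replicate 1 for ∆G minus WT (252 without ∆G replicate 3), and 762, 885 and 847 without ∆G replicates 1 and 2 and null replicate 1 for ∆G minus null. With the covariate 1580 and 53 were called in null minus WT and ∆G minus null, and 1782 in null minus WT against WT replicate 3 alone, which is assumed to vary like the rest. The cause of these shifts was not tested. Leaving out arrays lowers the precision. The covariate fit kept all 9 arrays, but its covariate nearly coincides with genotype between ∆G and null, which also lowers the precision. With the replicate number as a block, 2, 5 and 4 of the 6 genes and 211, 3777 and 1977 genes in all were called. The deviations of same-numbered arrays correlated at −0.08 to 0.27. They did so at 0.27, 0.18 and 0.12 for replicate 2, but not every pair was over 0.1, and WT replicate 1 correlated better with ∆G replicate 3 (0.14) than with ∆G replicate 1 (−0.03). The labels do not tie a number to a litter, so the block was not part of the reported fit. No second probe set existed for any of the 6 genes, so none was tried with another. A fit of every probe set, which is among the alternatives, called 2, 5 and 4 of the 6 genes.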

Other observations

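Genes that start head to head with a member were looked up in the RefSeq promoter table (GRCm38.p6, opposite strands, starts within 1000 bases) after the values of the 6 genes had been seen. Ormdl1, a regulator of sphingolipid synthesis, starts 67 bases from Pms1. Its log2 signal was 7.14, 7.3 and 7.03 in WT, 7.44, 7.3 and 7.36 in ∆G and 7.89, 7.75 and 7.78 in null. It rose in null by 0.65 (SE 0.08, limma adjusted p = 0.00036), where Pms1 rose by 0.69, and had a difference of 0.21 in ∆G that was not called (adjusted p = 0.34). Aimp2, a scaffold of the aminoacyl-tRNA synthetase complex, starts 162 bases from Pms2. Its signal was 8.13 to 8.18 in WT, 8.07 to 8.35 in ∆G and 8.25 to 8.61 in null, and like Pms2 it was not called in any comparison (log2 differences 0.08 in ∆G and 0.28 in null, adjusted p = 0.83 and 0.081).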
